A study of Danio rerio with 2 samples.

Results

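Peripheral glia and neural crest cells were picked out of single-cell RNA-seq data from zebrafish heads as cells with at least 1 UMI (unique molecular identifier, 1 captured transcript) of *sox10*, at least 1 UMI of *foxd3*, and no UMI of *olig2* or *matn1*. The gate held 584 of 65020 kept cells: 275 of 27277 (1.01%, 95% Clopper-Pearson interval 0.893 to 1.13) from *polr3a* mutants and 309 of 37743 (0.819%, 0.730 to 0.915) from wild-type fish. The mutant library came from *polr3a* sa907/sa907 fish, which carry an ENU-induced nonsense allele of the largest subunit of RNA polymerase III (Pol III), and the wild-type library from *polr3a* +/+ fish of the same crosses between sa907/+ carriers in the AB background. All fish were at 3 days post-fertilisation (dpf) and were chosen for the transgenes Tg(fli1a:egfp) and Tg(sox10:mRFP), whose reporters mark vessels and *sox10* lineage cells. Each library pooled 10 heads, cut off at the pectoral fin, and the viable cells sorted from them were profiled by 10x 3′ GEM-X chemistry. The study describes maternal *polr3a* in these fish, so the homozygous mutants are not a full null. With 1 library per condition there was no replicate, no p-value was computed, and the 95% intervals below cover counting error only.

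*sox10* encodes a SoxE factor of neural crest cells, whose descendants include Schwann cells, satellite glia, enteric neurons and pigment cells. *foxd3* encodes a forkhead factor of the early crest that persists in peripheral glia and in some pigment precursors. *olig2* marks the oligodendrocyte lineage of the brain, which also uses *sox10*, and *matn1* encodes a cartilage matrix protein of crest-derived chondrocytes. Schwann cells of zebrafish cranial and lateral line nerves migrate along axons under neuregulin and ErbB signals, then pass through a *pou3f1* stage into an *egr2b* stage in which the myelin genes are switched on. No sequences or coordinates of the build behind the count tables were used here, and genes are named by their symbols.

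The gate chose the cells by the 4 genes it reads, so their values are a description. *sox10* stood at 596 UMIs per 1000000 UMIs (CPM) in mutant and 474 CPM in wild-type gated cells, and *foxd3* at 710 and 675 CPM. The median cell held 3 UMIs of *sox10* and 2 of *foxd3* in the mutant, against 2 and 3 in wild type. Just inside the gate, 27 mutant and 43 wild-type cells held exactly 1 UMI of each gene. Just outside it, 1261 mutant and 1376 wild-type cells held *sox10* without *foxd3*, 294 and 380 held *foxd3* without *sox10*, and *olig2* alone kept out 5 and 14 cells. A cell with few UMIs can miss either gene: with every kept cell thinned to 1000 UMIs the shares were 0.317% (0.252 to 0.394) in mutant and 0.211% (0.166 to 0.265) in wild type, and at 2000 UMIs 0.593% and 0.514%. As a measure of free RNA and doublets, 7 of 1231 mutant (0.569%, 0.229 to 1.17) and 6 of 1459 wild-type (0.411%, 0.151 to 0.893) photoreceptor-marker cells, which should lack both genes, also held both, and their median depth was 5872 and 4875 UMIs. Among all kept cells, with a median depth of 4157 and 3466 UMIs, 1.07% (0.948 to 1.196) and 0.877% (0.785 to 0.976) held both, and the intervals overlap those of this background in each library.

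Gated cells had a median of 6028 UMIs and 2480 genes in the mutant and 5718 UMIs and 2398 genes in wild type, with medians of 3.06% and 2.77% mitochondrial UMIs, and their summed UMIs came to 1941816 and 2123336. The libraries share 294 kept barcodes, none of them between the gated sets. *polr3a* itself had 33 and 26 UMIs in the gated cells, 17.0 and 12.2 CPM (log2 ratio 0.47, -0.31 to 1.27), which did not differ beyond counting error. A 3′ UMI count sees a transcript whether or not it carries the nonsense allele, so it does not read the genotype directly. By qRT-PCR on heads of the same age, the study reports less mRNA of this gene in homozygous mutants and predicts some nonsense-mediated decay. Such a fall was not seen in the gated cells, where the interval of -0.31 to 1.27 covers counting error only. The reason for this difference was not tested.

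The gated cells fell into 2 kinds with different leading genes, and one of them went against the name peripheral glia. Cells with at least 2 UMIs over a list of 19 pigment genes are called pigment-marker cells here, and the rest with at least 2 UMIs over a list of 24 glial genes are called glia-marker cells. Pigment-marker cells numbered 112 of 275 (40.7%, 34.9 to 46.8) in the mutant and 134 of 309 (43.4%, 37.8 to 49.1) in wild type, and held 55.6% and 54.0% of the gated UMIs because they were deeper (median 9690.5 and 7910 UMIs). Glia-marker cells numbered 163 (59.3%, 53.2 to 65.1) and 172 (55.7%, 49.9 to 61.3), with a median of 4925 UMIs in both libraries, and 0 and 3 cells had neither. The intervals of the mutant and wild-type shares overlap for both kinds. Thinned to 2000 UMIs per cell, pigment-marker cells made up 40.9% and 40.0% and glia-marker cells 58.3% and 59.3%.

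**Figure D1:**
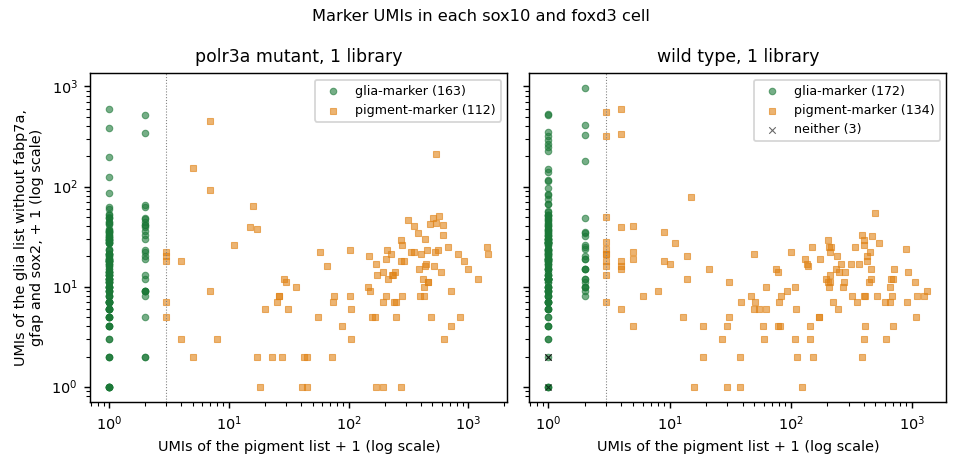
UMIs of the glial list without *fabp7a*, *gfap* and *sox2* (vertical axis) against UMIs of the pigment list (horizontal axis) in each gated cell. Each point is 1 cell, both axes are log after adding 1, and the mutant library is in the left panel and wild type in the right. In both panels the cells form a cloud with hardly any pigment UMIs and a second cloud that spreads to the right, where 92 mutant and 99 wild-type cells hold at least 20 pigment UMIs.

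The split was clear for most cells and blurred near the cut: 20 mutant and 35 wild-type pigment-marker cells held only 2 to 19 pigment UMIs, and 27 and 25 gated cells held exactly 1. The pigment list summed to 28995 and 27865 CPM in mutant and wild-type pigment-marker cells, but to 31.3 and 25.8 CPM in glia-marker cells, where *mitfa*, the master factor of melanophores, *tyr*, *csf1ra*, *xdh* and *aox5* had no UMI in either library. A glia-marker cell has fewer than 2 UMIs of this list by the rule that chose it. Its low pigment values are therefore a description and no support for the split. The glial list, which holds the broadly used genes *fabp7a*, *gfap* and *sox2*, reached 2 UMIs in 93.8% and 95.5% of pigment-marker cells and in 74.1% and 72.8% of all other kept cells. Without those 3 genes, all but 11 mutant and 4 wild-type glia-marker cells still reached 2 UMIs. Most pigment-marker cells also reached 2 UMIs without those 3 genes, so this count does not set glia-marker cells apart.

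Glia-marker cells were led by a mixed set of genes that included *erbb3b* and *mbpa*, which Schwann cells are known for. *mbpa* had a UMI in only 10 of 163 mutant and 25 of 172 wild-type cells. The cells rich in it seldom held *erbb3b*, as counted below. Among the 15 genes highest in glia-marker cells over other kept cells in both libraries, *scn4ab*, a voltage-gated sodium channel subunit, stood at 1293 CPM in mutant and 1243 CPM in wild-type cells, against 4.09 and 5.51 CPM in all other kept cells. *mcamb*, an adhesion molecule of the immunoglobulin family, stood at 1100 and 995 CPM, against 31.9 and 28.2 CPM elsewhere. *erbb3b*, the neuregulin receptor that zebrafish Schwann cells need to migrate along axons, stood at 247 and 203 CPM, against 5.10 and 6.29 CPM elsewhere, and had a UMI in 99 of 163 and 95 of 172 cells. *gpr17*, a receptor gene best known from oligodendrocyte precursors, *hbegfb* (an EGF family ligand) and *ptprja* (a receptor tyrosine phosphatase) were in the same set, as was *zwi*, which was lower in the mutant at 985 CPM, against 1503 CPM in wild type (log2 ratio -0.61, -0.73 to -0.49). These levels describe cells that were chosen by their genes and are not a test.

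Some receptor and factor genes of the early Schwann cell, and the myelin gene *pmp22a*, were present in both genotypes without a called difference. *pou3f1*, the POU factor of the promyelinating stage, stood at 752 CPM in mutant and 686 CPM in wild-type glia-marker cells (log2 ratio 0.13, -0.02 to 0.29). *adgrg6*, the adhesion GPCR that starts Schwann cell myelination, stood at 219 and 182 CPM (0.26, -0.04 to 0.57), and *erbb2*, the coreceptor of *erbb3b*, at 97.4 and 79.4 CPM (0.29, -0.17 to 0.76). *pmp22a*, a peripheral myelin protein gene, stood at 1200 and 1198 CPM (0.00, -0.12 to 0.12). None of these differed beyond counting error, and the intervals do not show that the levels are equal. The receptor gene *erbb3a* of the same glial list was lower in all gated cells, but not without mixed cells, as given below. *mpz*, the main peripheral myelin gene of mammals, had no UMI in any mutant gated cell and had 3 UMIs in 2 wild-type ones.

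Pigment-marker cells carried iridophore, xanthophore and melanophore genes. Of the cells with at least 20 pigment UMIs, 47 mutant and 53 wild-type cells held most of them in iridophore genes, 33 and 35 in xanthophore genes and 12 and 11 in melanophore genes. *pnp4a*, a purine enzyme of the reflecting iridophores, stood at 7085 CPM in mutant and 6623 CPM in wild-type pigment-marker cells. *gpnmb*, a melanosome protein gene, was counted here among the iridophore genes, with *pnp4a*, *ltk*, *ednrba* and *tfec*, and stood at 3639 and 3168 CPM. *defbl1* and *lypc*, which were among the 15 leading genes, stood at 14418 and 12690 and at 10399 and 9129 CPM. The xanthophore pteridine enzyme gene *gch2*, named after its values were seen, stood at 12095 and 12969 CPM. The neural crest list summed to 2153 and 2027 CPM in mutant and wild-type pigment-marker cells, against 1273 and 1133 CPM in glia-marker cells. Of its genes, *pax7a*, which xanthophores need, stood at 482 and 449 CPM in pigment-marker cells, against 9.27 and 12.4 CPM in glia-marker cells. *zeb2a*, a crest and glial zinc finger gene, ran the other way, at 742 and 715 CPM in glia-marker and 297 and 278 CPM in pigment-marker cells. *crestin*, the early pan-crest transcript, was seen in 21 gated cells of each library (7.64% and 6.80%).

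**Figure D2:**
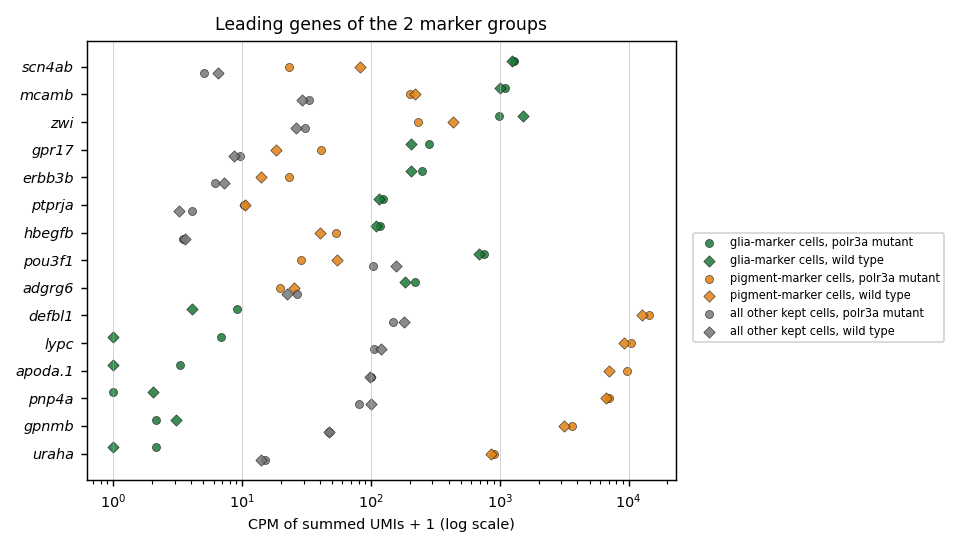
Level in CPM plus 1 (log axis) of leading genes in glia-marker cells, pigment-marker cells and all other kept cells, with a mutant and a wild-type point for each. Most genes that lead one kind of gated cell lie far below in the other kind, with a smaller gap for *zwi*. Glia-marker cells were chosen for having hardly any UMIs of the pigment list. For genes of that list, such as *pnp4a*, the gap follows from this rule and is a description and no support for the split. In the cells a gene leads, its mutant and wild-type points lie close together for most genes, as for *pnp4a* at 7085 and 6623 CPM.

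Over all 3453 genes tested in gated cells (at least 50 CPM on average, UMIs in at least 10 cells, no cell with over 25% of them), 18 were higher in the mutant past 2-fold with an interval excluding 1 (0.521%) and 21 were lower (0.608%). In glia-marker cells 47 of 3659 were higher (1.28%) and 61 lower (1.67%), and in pigment-marker cells 23 of 3020 were higher (0.762%) and 15 lower (0.497%) past 2-fold, against 34 higher (0.905%) and 3 lower (0.0798%) of 3758 in all other kept cells. For gene lists the threshold was 1.2-fold at 20 CPM, which 10.9% of all 7317 genes passed upward and 7.65% downward in gated cells, 9.49% and 5.97% in glia-marker cells, 8.81% and 6.8% in pigment-marker cells and 11.1% and 4.85% in all other kept cells. The median log2 ratio of all genes lay between 0.01 and 0.06 in these populations. At both thresholds all other kept cells were read by the CPM minimum alone, without the filters on cells. They held 134971294 mutant and 162143334 wild-type UMIs, against 862593 and 969973 in glia-marker cells. Counting error is therefore larger in the gated cells, and their shares of called genes are not on an equal footing with those of other cells.

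Genes of the integrated stress response, the program run by ATF4 when amino acid lack or other stress slows translation initiation, were higher in the mutant in both kinds of gated cell. Of its 15 genes tested in glia-marker cells 12 were higher and 0 lower (median log2 ratio 0.92), of 17 in pigment-marker cells 12 and 0 (0.80), and of 21 in all other kept cells 16 and 0 (0.76). Summed over the list, gated cells held 2906 CPM in the mutant and 1849 CPM in wild type.

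*atf5b*, an ATF4 target and itself a bZIP factor, had 147 UMIs in 81 mutant cells and 48 UMIs in 40 wild-type cells, 75.7 and 22.6 CPM (log2 ratio 1.74, 1.26 to 2.25). *ddit3*, the CHOP factor of prolonged stress, rose to 374 CPM in mutant pigment-marker cells, against 167 CPM in wild type (1.17, 0.92 to 1.42), and to 181 against 88.7 CPM in glia-marker cells (1.03, 0.64 to 1.43). *sesn2*, a leucine sensor upstream of TORC1, had 34 UMIs in mutant and 3 UMIs in wild-type glia-marker cells (3.67, 2.0 to 6.02). All 3 genes moved the same way in both kinds of gated cell.

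*igfbp1a*, which encodes a secreted protein that binds insulin-like growth factors, had the largest ratio of any gene tested at 50 CPM in gated cells. It had 285 UMIs in 82 mutant cells and 55 UMIs in 37 wild-type cells, 147 and 25.9 CPM (log2 2.50, 2.08 to 2.95). Its ratio was 2.89 (2.31 to 3.51) in glia-marker, 1.99 (1.37 to 2.66) in pigment-marker and 2.77 (2.72 to 2.82) in all other kept cells. The rise was thus seen inside and outside the gate.

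Genes for amino acid synthesis and transport rose more widely in glia-marker than in pigment-marker cells: 13 of 16 tested were higher and 0 lower in glia-marker cells (median 1.33), 7 of 17 and 0 in pigment-marker cells (0.33), and 16 of 20 and 0 in all other kept cells (0.99). The difference between the kinds has no replicate. *slc1a4*, a transporter of neutral amino acids such as serine and alanine, had 98 UMIs in 49 mutant glia-marker cells and 7 UMIs in 5 wild-type ones, 114 and 7.22 CPM (log2 3.98, 2.88 to 5.33), and 33.4 against 6.98 CPM in pigment-marker cells (2.26, 1.13 to 3.57). *slc3a2b*, the heavy chain shared by several amino acid exchangers, stood at 283 and 81.4 CPM in glia-marker cells (1.80, 1.42 to 2.18) and at 167 and 91.6 CPM in pigment-marker cells (0.86, 0.51 to 1.23).

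The serine synthesis enzymes separated the kinds by their starting level. *psat1* stood at 184 CPM in mutant and 51.5 CPM in wild-type glia-marker cells (1.84, 1.37 to 2.33), and at 920 and 603 CPM in pigment-marker cells (0.61, 0.47 to 0.75). *phgdh*, the first enzyme of that pathway, stood at 126 and 42.3 CPM in glia-marker cells (1.58, 1.05 to 2.13) and at 688 and 548 CPM in pigment-marker cells (0.33, 0.17 to 0.48). The level in wild-type pigment-marker cells was already above that in mutant glia-marker cells for both genes, at a smaller ratio.

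Aminoacyl-tRNA synthetases, which charge the tRNAs that Pol III makes, were higher in 13 of 17 genes and lower in 0 in glia-marker cells (median 0.75), in 5 of 16 and 0 in pigment-marker cells (0.40), and in 17 of 17 in all other kept cells (0.90). *tars*, the threonine enzyme, stood at 99.4 CPM in mutant and 42.9 CPM in wild-type gated cells (1.21, 0.85 to 1.59), and *yars*, the tyrosine enzyme, at 54.1 and 24.96 CPM (1.12, 0.63 to 1.62). Pol III genes gave a less even picture: 4 of 12 tested were higher and 0 lower in glia-marker cells (median 0.56), 0 of 6 in either direction in pigment-marker cells (-0.49), and 4 higher and 2 lower of 10 in all other kept cells (0.17). *brf1a*, a subunit of the TFIIIB initiation factor, had 34 UMIs in mutant and 9 in wild-type glia-marker cells (2.09, 1.0 to 3.33), and *polr3k*, a small Pol III subunit, 46 and 15 (1.79, 0.92 to 2.73).

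The p53 pathway list was higher in 8 of 14 genes in glia-marker cells (median 0.57), in 7 of 15 in pigment-marker cells (0.33) and in 7 of 13 in all other kept cells (0.37), with 0, 0 and 1 lower. *ccng1*, a cyclin G gene induced by p53, had a UMI in 207 of 275 mutant and 198 of 309 wild-type gated cells and stood at 737 and 259 CPM (log2 1.51, 1.36 to 1.65). *mdm2*, the ubiquitin ligase that restrains p53, stood at 51.5 and 17.0 CPM (1.60, 1.04 to 2.19). *cdkn1a*, the p21 inhibitor of cyclin-dependent kinases, stood at 111 and 40.1 CPM in pigment-marker cells (1.47, 0.97 to 1.99) and at 141 and 80.4 CPM in glia-marker cells (0.81, 0.39 to 1.24). Of the apoptosis list, 1 of 11 genes tested in glia-marker and 2 of 11 in pigment-marker cells were higher and 0 lower.

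**Figure D3:**
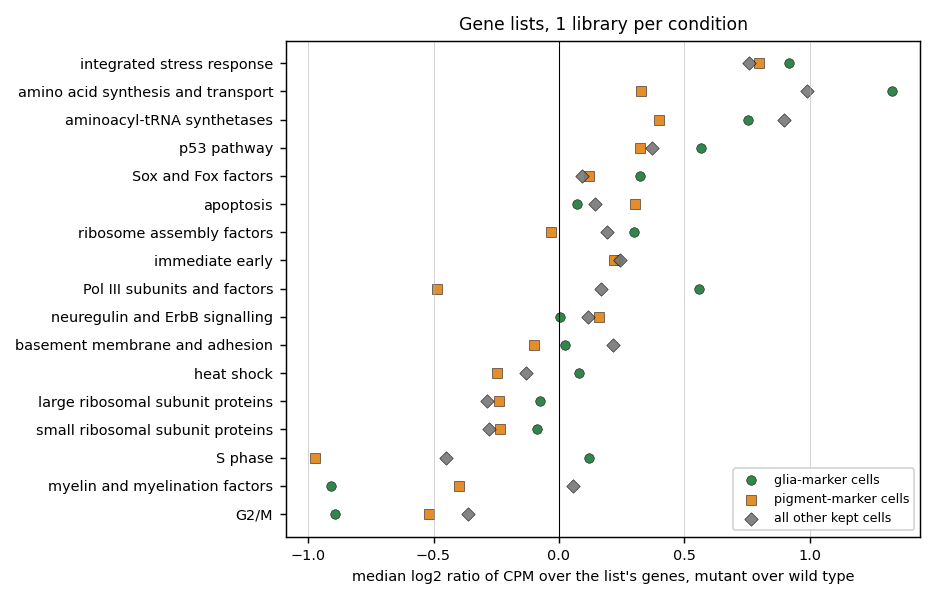
Median log2 ratio of mutant over wild type for the genes of 17 lists (horizontal axis), in glia-marker cells, pigment-marker cells and all other kept cells. The stress, amino acid, synthetase and p53 lists lie right of 0 in all 3, G2/M lies left of 0 in all 3 and furthest in glia-marker cells (-0.89), and S phase lies near 0 in glia-marker cells (0.12) and furthest left in pigment-marker cells (-0.97).

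Most of the cell cycle genes called lower belonged to the G2/M list in glia-marker cells and to the S phase list in pigment-marker cells. In glia-marker cells 18 of 25 genes of G2 and mitosis were lower and 0 higher (median -0.89), while of 25 S phase genes 1 was lower and 3 were higher (0.12). Pigment-marker cells include 20 of 112 mutant and 35 of 134 wild-type cells with only 2 to 19 pigment UMIs. Summed over all pigment-marker cells, 17 of 20 S phase genes were lower and 0 higher (-0.97). At least 2 UMIs over that list were held by 46.4% of mutant and 47.8% of wild-type pigment-marker cells, and by 24.3% (16.5 to 33.5) and 33.6% (25.6 to 42.4) with each cell thinned to 2000 UMIs, intervals that overlap. In the same cells, of 14 G2/M genes 3 were lower and 0 higher (-0.52), a median that turned above 0 (0.13 to 1.08) in 4 of 14 alternative treatments. In all other kept cells both lists were lower, S phase in 22 of 23 genes (-0.45) and G2/M in 18 of 22 (-0.36).

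*cdk1*, the kinase that drives entry into mitosis, had 116 UMIs in 33 mutant glia-marker cells and 313 UMIs in 54 wild-type ones, 134 and 323 CPM (log2 -1.26, -1.58 to -0.95). *cenpf*, a kinetochore protein gene, had 118 UMIs in 24 mutant cells and 313 in 58 wild-type cells (-1.24, -1.56 to -0.93), and *cdc20*, the activator of the anaphase-promoting complex, 38 in 14 and 100 in 33 (-1.23, -1.81 to -0.67). Fewer cells carried these transcripts in the mutant. With each cell thinned to 2000 UMIs, 15.6% (9.89 to 22.8) of mutant and 33.5% (26.2 to 41.5) of wild-type glia-marker cells held at least 5 UMIs over the G2/M list, and 59.3% and 61.4% held at least 2 over the S phase list. Across 14 alternative treatments of the cells and values, 9 to 22 of these genes were lower in glia-marker cells and 0 higher.

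Single replication genes differed between the kinds. *rrm2*, a subunit of the reductase that makes deoxynucleotides, stood at 46.3 CPM in mutant and 161 CPM in wild-type pigment-marker cells (-1.79, -2.27 to -1.34) and at 277 and 327 CPM in glia-marker cells (-0.24, -0.49 to 0.01). *mcm3*, a subunit of the replicative helicase, had a UMI in 14 of 112 mutant and 34 of 134 wild-type pigment-marker cells (-1.44, -2.05 to -0.86), and its ratio in glia-marker cells was 0.13 (-0.26 to 0.52). *rrm2* is carried by few cells (15 and 20 in pigment-marker cells). Cells with at least 3 UMIs over the neuron, photoreceptor, erythrocyte, epidermis, muscle, endothelium, leukocyte or lens list are called mixed cells here. Leaving them out took the pigment-marker ratio of *rrm2* to 0.02. They made up 53.6% of mutant and 49.3% of wild-type pigment-marker cells. The leukocyte list reached 2 UMIs in 34.8% and 27.6% of pigment-marker cells, in the mutant through *coro1a* alone. Whether *coro1a* is a transcript of the pigment cells themselves was not tested.

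**Figure D4:**
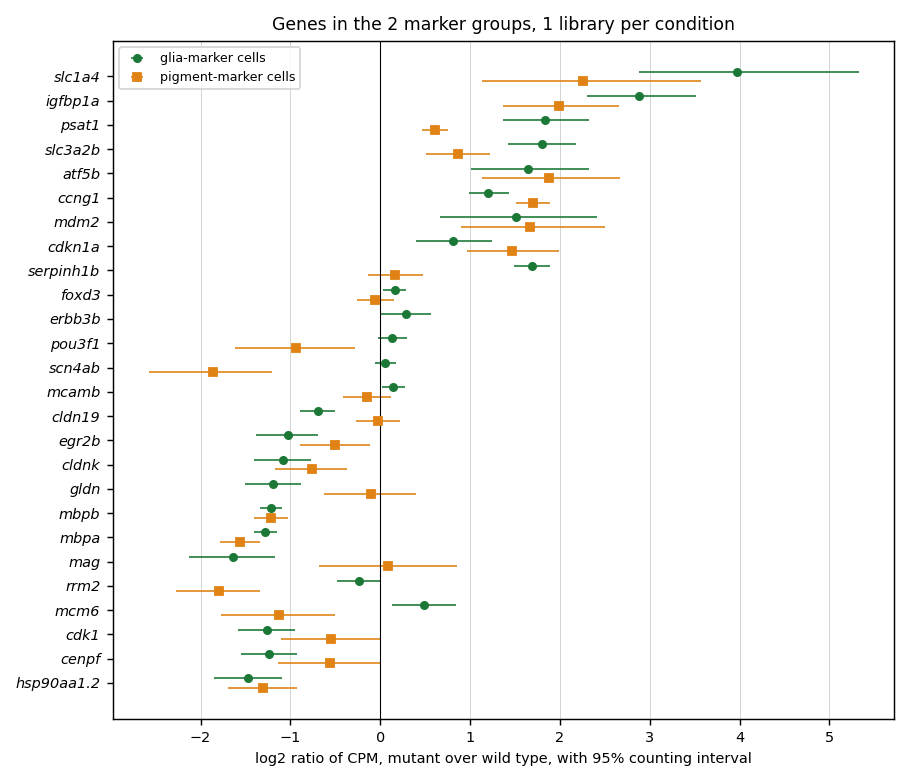
Log2 ratio of mutant over wild type for 26 named genes in glia-marker and pigment-marker cells, with bars for the 95% counting interval and a line at 0 for equal levels. Stress and p53 genes lie to the right in both kinds, *serpinh1b* to the right in glia-marker cells, *cdk1* and *cenpf* to the left in glia-marker cells, *rrm2* and *mcm6* to the left in pigment-marker cells, and *mbpa* and *mbpb* to the left in both kinds, although in pigment-marker cells *mbpb* turned to 1.97 among cells with at least 20 pigment UMIs and both turned above 0 without mixed cells.

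Late myelin genes were lower in the mutant. Of 14 genes of the myelin list tested in glia-marker cells 9 were lower and 0 higher (median -0.91), with 5118 CPM over the list in the mutant and 8272 CPM in wild type, of 13 in pigment-marker cells 6 were lower and 2 higher (-0.40, which turned to 0.29 among cells with at least 20 pigment UMIs and to 0.27 without mixed cells), and of 10 in all other kept cells 1 was lower and 3 were higher (0.06). *mbpa*, which encodes the basic protein that compacts myelin, had 900 UMIs in 15 mutant gated cells and 2543 UMIs in 37 wild-type ones, 463 and 1198 CPM (log2 -1.37, -1.48 to -1.26). *mag*, a glycoprotein of the membrane next to the axon, had a UMI in 9 mutant and 30 wild-type glia-marker cells (-1.64, -2.13 to -1.17). *egr2b*, the zinc finger factor that turns on myelin genes, had one in 13 and 39 glia-marker cells (-1.03, -1.38 to -0.69). The claudins *cldnk* and *cldn19* and *gldn*, a nodal adhesion protein gene of Schwann cells, were lower in glia-marker cells by log2 ratios of -1.09, -0.70 and -1.19, whereas *pou3f1*, *adgrg6* and *pmp22a* of the same list did not pass the threshold.

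These ratios rest on a small set of cells, and the following count was chosen after its values were seen. Cells with at least 10 *mbpa* UMIs numbered 7 of 275 (2.55%, 1.03 to 5.17) in the mutant and 22 of 309 (7.12%, 4.52 to 10.6) in wild type, and held 98.0% and 98.1% of all gated *mbpa* UMIs. Within glia-marker cells they were 4 of 163 (2.45%, 0.673 to 6.16) and 18 of 172 (10.5%, 6.32 to 16.03). Each of the 29 cells also held *egr2b*, *mag*, *cldn19*, *cldnk* and *gldn* UMIs. Of the oligodendrocyte lineage list, *olig1* was seen in none of them, but also in only 2 of 159 mutant and 0 of 154 wild-type other glia-marker cells. *plp1a* of the same list was seen in 7 of the 7 and 21 of the 22, against 2.52% and 2.60% of the other glia-marker cells. These genes thus do not settle the lineage of the cells. The leading gene *scn4ab* was seen in 0 of the 7 mutant and 2 of the 22 wild-type cells, against 74.8% and 83.1% of the other glia-marker cells. *erbb3b* was seen in 1 of the 7 and 3 of the 22, against 61.6% and 60.4% of the other glia-marker cells. The amounts per cell overlapped, since those 7 mutant cells held 19 to 205 *mbpa* UMIs (median 128) and the 22 wild-type cells 17 to 372 (median 90.5). Of those counted as pigment-marker, 2 of 3 mutant and all 4 wild-type cells held only 2 to 6 pigment UMIs beside 171 to 663 UMIs of the glial list. With the *mbpa* cells left out of both libraries, 3 myelin genes stayed lower in gated cells and the list median was -0.08.

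Whether such cells were fewer depended on the gate and on mixed cells. Among cells with *sox10* but no *foxd3*, *olig2* or *matn1* UMI, 23 of 1261 mutant and 19 of 1376 wild-type cells held at least 10 *mbpa* UMIs. With *foxd3* not required and an *egr2b* UMI required instead, they were 25 of 1536 mutant (1.63%, 1.06 to 2.39) and 35 of 1685 wild-type cells (2.08%, 1.45 to 2.88). As shares of all kept cells these were 0.0917% (0.0593 to 0.135) and 0.0927% (0.0646 to 0.129), against 0.0257% (0.0103 to 0.0529) and 0.0583% (0.0365 to 0.0882) for the gated cells, so the intervals overlap on this basis with either gate. Enough UMIs of another cell type's list to count as mixed, most often of the neuron list, were seen in 1 of the 7 mutant and 16 of the 22 wild-type gated *mbpa* cells, against 48.7% and 51.1% of all gated cells. Among gated cells without such UMIs, *mbpa* cells made up 6 of 141 (4.26%, 1.58 to 9.03) in the mutant and 6 of 151 (3.97%, 1.47 to 8.45) in wild type, and among those with them 1 of 134 (0.746%) and 16 of 158 (10.1%). With mixed cells left out, the myelin list had 1 gene lower and 3 higher in gated cells (median 0.09). The part that doublets or free RNA play in the difference was not tested.

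**Figure D5:**
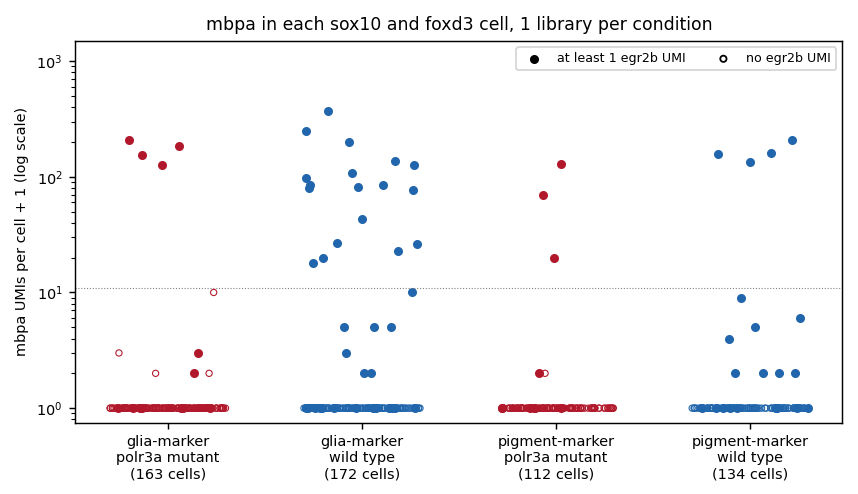
*mbpa* UMIs plus 1 (log axis) in each gated cell, by library and by kind of cell, filled where the cell held an *egr2b* UMI, with a dotted line at 10 UMIs. Most cells lie at 0, and above the line are 4 mutant and 18 wild-type glia-marker cells and 3 and 4 pigment-marker cells.

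Other named genes changed in one kind of cell more than in the other. *serpinh1b*, the collagen chaperone Hsp47, rose to 938 CPM in mutant glia-marker cells, against 291 CPM in wild type (log2 1.69, 1.49 to 1.89), while in pigment-marker cells it stood at 170 and 151 CPM (0.17, -0.14 to 0.48) and in all other kept cells had a ratio of 1.35 (1.34 to 1.37). *hapln1a*, which links hyaluronan to proteoglycans, stood at 144 and 45.2 CPM in gated cells (1.67, 1.33 to 2.02), against a ratio of 0.34 (0.32 to 0.36) elsewhere, and a ratio of 0.43 without mixed cells, which did not pass the threshold. It is also a cartilage gene, and the chondrocyte list stood at 1013 and 341 CPM in glia-marker cells, where 1 mutant cell held 37.2% of it, but at 496 and 655 CPM in pigment-marker cells, while *hapln1a* had UMIs in 44 mutant and 27 wild-type gated cells. The part of cartilage RNA in this ratio was not tested.

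The signalling and adhesion lists had medians near 0, and the ribosome lists differed between the kinds of cell. Of 21 neuregulin and ErbB genes tested in glia-marker cells 2 were higher and 2 lower (median 0.01). The ligand gene *nrg1* stood at 22.1 and 50.4 CPM in mutant and wild-type gated cells (-1.19, -1.73 to -0.66), and the receptor *erbb3a* at 45.3 and 63.6 CPM (-0.49, -0.89 to -0.09), which turned to 0.080 without mixed cells. Of 18 basement membrane and adhesion genes in glia-marker cells 3 were higher and 1 lower (0.03), with *col4a6*, a type IV collagen chain, at 37.1 and 10.3 CPM (1.85, 0.79 to 3.04). Large ribosomal subunit genes were lower in 2 of 48 in glia-marker and 19 of 48 in pigment-marker cells and higher in 0 (medians -0.08 and -0.24), against 26 of 48 lower in all other kept cells (-0.29). *rpl22l1*, a paralog of *rpl22*, was the most changed of them in both kinds, at 466 and 793 CPM in gated cells (-0.77, -0.89 to -0.65). Small subunit genes were lower in 0 of 33 and 13 of 33 (-0.09 and -0.24), against 20 of 33 in all other kept cells (-0.28). Ribosome assembly factors, which build the subunits in the nucleolus, were higher in 9 of 38 in glia-marker and 0 of 34 in pigment-marker cells and lower in 0 (0.30 and -0.03). In all other kept cells 8 of 37 were higher and 1 lower (0.19).

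Transcription factors of the Sox and Fox families were higher in 5 of 12 genes in glia-marker cells and lower in 0 (median 0.32), but without mixed cells in 2 and lower in 3 (-0.037). *sox4a*, a SoxC factor of immature cells, stood at 274 and 184 CPM there (0.58, 0.29 to 0.87), *foxo1a*, a factor held in check by insulin signalling, at 175 and 124 CPM (0.50, 0.15 to 0.86), and *sox3* at 68.4 and 24.7 CPM (1.47, 0.76 to 2.22). Immediate early genes, which dissociation can induce, were higher in 4 of 12 in glia-marker cells (median 0.24), heat shock genes higher in 1 and lower in 2 of 9 (0.08). *hsp90aa1.2* stood at 80.9 and 212 CPM in gated cells (-1.39, -1.66 to -1.12), against a ratio of -0.30 (-0.32 to -0.28) elsewhere. Interferon response, cholesterol synthesis and mitochondrial transcripts had 3 or fewer genes tested each in these cells, of which 0 passed the threshold. Summed over all 15 interferon response genes found, many of them too low to test singly, gated cells held 134 CPM in the mutant and 78.2 CPM in wild type (0.78, 0.50 to 1.07), with a ratio of 0.86 (0.82 to 0.90) in all other kept cells.

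Some of the largest falls belong to genes of other cell types, whose summed lists also differed between the gated sets in either direction. *gnat2*, the cone transducin gene, stood at 19.1 and 111 CPM in gated cells (-2.54, -3.08 to -2.03). The photoreceptor list summed to 387 CPM in mutant and 2836 CPM in wild-type glia-marker cells, where 1 wild-type cell held 42.1% of it, and to 5151 and 5198 CPM in all other kept cells. The erythrocyte list summed to 12264 and 7086 CPM in pigment-marker cells, with 37.2% and 59.7% of it in 1 cell of each library. The neuron list reached 2 UMIs in 50.9% and 52.3% of glia-marker cells, and the autonomic and enteric list in 31.3% and 46.5%, led by *phox2bb* at 194 and 155 CPM, while the noradrenergic enzyme genes *th* and *dbh* were at or near 0. With mixed cells left out, the ratio of *gnat2* was 0.82. *gnat2* is on the photoreceptor list that defines mixed cells, so cells rich in it were left out by rule. That ratio is a description and no test. The part of these cells in the other ratios was not tested beyond the values without them.

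The same lists were read in other *sox10* cells and in *matn1* cells of these libraries. The share of all genes past the threshold was not computed in these populations. Their counts of called genes therefore have no background beside them and are a description. The integrated stress response was higher in 15 of 21 genes and lower in 0 among *sox10* cells without *foxd3* (median 0.76) and in 10 of 19 and 0 among 168 mutant and 246 wild-type *sox10* cells with *olig2* (0.43), and in 13 of 16 with 2 lower among 792 and 852 *matn1* cells (0.99). The G2/M list was lower in 2 and higher in 1 of 19 genes in *sox10* cells without *foxd3* (-0.05), lower in 1 and higher in 3 of 23 in *olig2* cells (0.30), and lower in 8 and higher in 0 of 10 in *matn1* cells (-0.64), against 18 of 25 lower in glia-marker cells. The myelin list was higher in 7 of 15 and lower in 0 in *sox10* cells without *foxd3* (0.23), and lower in 9 and higher in 2 of 14 in *olig2* cells (-0.35). These differences between populations are between 1 library and another and have no replicate.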

How the data were processed

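The authors deposited a table of UMI counts per gene and barcode for each library, with no cell type annotation used here, made with Cell Ranger 8.0.0 per the file headers (the study's methods name another version) on GRCz11 per the submitters' processing notes. The gene annotation is not given in the sources used here. Barcodes with 500 to 20000 UMIs, 500 to 5000 genes and at most 20% mitochondrial UMIs were kept, which left 27277 of 32228 mutant and 37743 of 43611 wild-type barcodes. No doublet caller was run, so doublets remain. UMIs were summed over the cells of each library and divided by their total (CPM). Log2 ratios are mutant over wild type with exact conditional binomial 95% intervals, and shares have Clopper-Pearson intervals. Both treat UMIs or cells as independent draws, so an interval is too short where a handful of cells carries a gene. The ratio and its interval were tested on simulated counts drawn independently for each gene, so that simulation could not show this shortfall.

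The cells and gene lists were chosen with earlier results of these data known, and nothing here is independent of them. Named genes are the 10 highest and 10 lowest ratios past 2-fold in all gated cells and in each kind of cell, the 15 leading genes over other kept cells, the 3 genes farthest from 0 in each list, the gate genes, *polr3a* and markers of at least 50 CPM. Outside that rule, *gch2*, *mpz*, *crestin*, *phox2bb*, *th*, *dbh*, *olig1* and the pigment genes at 0 were named after their values were seen, as were ratios of genes in a kind of cell other than the one whose rule named them. The ratios within glia-marker and pigment-marker cells were added after seeing the data. Alternatives changed the cell filter, the gate, thinning, weighting, the level filter and the cells left out. Python 3.11.15, numpy 2.4.6, scipy 1.17.1, pandas 2.3.3 and matplotlib 3.10.9 were used.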

Additional observations from a re-analysis of the deposited data

Results flagged for a closer look

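Of the named genes, 5 had called ratios of mutant over wild type with opposite signs in the 2 kinds of gated cell. The replication genes *mcm5* (log2 0.60 in glia-marker and -0.61 in pigment-marker cells) and *mcm6* (0.49 and -1.12), the immediate early gene *fosb* (0.68 and -0.74) and the adhesion gene *ncam1a* (0.29 and -0.55) were higher in glia-marker and lower in pigment-marker cells. *nfasca*, which encodes a neurofascin of the node, ran the other way (-0.78 and 1.12). The opposite sign was lost for *fosb* without mixed cells (0.58 in pigment-marker cells) and when thinned (0.46), and for *ncam1a* without the exclusions and at equal weight per cell (0.12 each). The difference between the kinds was not tested, since there is 1 library per condition.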

How the results depend on the processing

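No paired analysis was possible because each condition has 1 library. Nor could any library be left out. Gated shares in mutant and wild type were 0.317% and 0.211% thinned to 1000 UMIs and 0.593% and 0.514% at 2000. Without mixed cells they were 2.67% (2.25 to 3.14) of 5282 mutant and 1.83% (1.56 to 2.15) of 8234 wild-type cells. Mixed cells made up 80.6% and 78.2% of all kept cells, since neurons or photoreceptors with UMIs of their own list count as mixed. These shares are therefore set against a different population of cells. With at least 3 UMIs of *sox10* and *foxd3* together the gated shares were 0.909% (0.80 to 1.03) and 0.705% (0.623 to 0.794). The mutant and wild-type intervals do not overlap among the cells left without mixed cells, or among all kept cells with the gate of at least 3 UMIs. That gate gave 33 genes lower past 2-fold, and a gate without *olig2* and *matn1* gave 13. Genes higher numbered 32 without the 10% deepest cells and 34 without mixed cells. Thinning to 2000 UMIs gave 48 higher and 47 lower, no level filter 325 and 284, and a 100 CPM minimum, which tests fewer genes, 11 and 9.

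Among lists in gated cells, leaving out mixed cells gave 7 synthetase genes higher and 3 S phase and 1 myelin gene lower. Thinning gave 9 stress response, 4 p53, 7 amino acid and 7 synthetase genes higher and 2 S phase and 11 G2/M genes lower. At 100 CPM these were 6, 3, 3 and 2 higher and 3 and 6 lower. Equal weight per cell gave 5 S phase genes lower. Among alternatives chosen after seeing the data, leaving out *mbpa* cells gave 7 genes lower past 2-fold and 3 myelin genes lower, and leaving out autonomic-marker cells gave 5 S phase genes lower. The causes were not tested.

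Of 213 gene ratios under all alternatives (2975 values), 21 values reversed. Without mixed cells, gated cells gave a myelin median of 0.085, *cntnap2a* 0.18, *erbb3a* 0.080, *gnat2* 0.82 and *rrm2* 0.14. For *gnat2*, a gene of the lists that define mixed cells, the rule itself left out the cells rich in it. Glia-marker cells gave *clmpb* 0.56 and *mafa* 0.030. Pigment-marker cells then gave medians of 0.17 for G2/M and 0.27 for myelin, with *dag1* at 0.063, *dut* 0.14, *fosb* 0.58, *mbpa* 0.081, *mbpb* 0.052, *rrm2* 0.025 and *sox11a* -0.25. The G2/M median there was also above 0 without the 10% deepest cells (1.08, *aurkb* 0.60), thinned (0.23, with *fosb* 0.46 and *sox4a* -0.013) and at equal weight (0.13, *ncam1a* 0.12). *ncam1a* was 0.12 without the exclusions. With at least 20 pigment UMIs the myelin median was 0.29, *mbpb* 1.97 and *sox11a* -0.33, and without autonomic-marker cells LOC798783 was 0.76 in glia-marker cells. The directions of the stress response, amino acid, synthetase and p53 list medians did not reverse under any alternative run.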
